A study of Mus musculus with 6 samples.

Results

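Mt1, Gsta3, Sult1b1, Mettl7a1 and Glo1 are 5 genes of detoxification and metal binding in the epithelium of the mouse colon, and they were described here as 5 of the 61 genes in the authors' deposited list of transcripts that changed on deletion of the chromatin remodeller gene Smarcad1. The 5 genes were selected on their presence in that list, which the authors had filtered on a false discovery rate (FDR) under 0.05 for the same comparison, and on their roles. Their differences between genotypes are therefore a description and no test was made of them. Libraries came from colon crypts, isolated as a suspension of whole crypts from C57BL/6 mice, with 3 libraries from wild type mice (WT) and 3 from mice carrying Villin-Cre with a floxed Smarcad1 gene (KO), so that Cre, made under the Villin promoter in gut epithelium, removed the exons between the loxP sites. According to the study's methods the mice were males, the floxed allele was carried by a line from a single targeted ES cell clone, and the Cre came from a Vil1-cre transgene. The age of the mice, and whether WT mice carried the floxed allele or the transgene, is not given in the sources used here.

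Colon epithelial cells face bacterial products, dietary compounds and metals from the lumen. Conjugating enzymes make reactive or lipophilic compounds more soluble, so that they can be exported: glutathione transferases attach glutathione to electrophiles, and sulfotransferases transfer a sulfo group to phenols, steroids and thyroid hormones. Glyoxalase 1 uses glutathione to remove methylglyoxal, a by-product of glycolysis, and metallothioneins hold zinc and copper, and trap cadmium, through their many cysteines. Thiol methyltransferases cap free thiol groups with a methyl group.

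The deposited values were 1 mean log2 expression value for each gene and genotype. The study describes the values of this list as normalised to total reads, while its methods name RPKM, a scaling that also divides by transcript length, for fold changes, and which of these the deposited columns carry is not settled here. Neither a value per library nor the read depth was analysed here, so no standard deviation is given and overlap between the KO and WT libraries was not examined. Ranks and like levels between genes below are on the deposited scale, and may hold an effect of transcript length if the values are not RPKM. Values divided by length are given beside them for that case, and would correct for length a second time if they are. Neither scaling affects the difference between KO and WT of a gene. Smarcad1 itself had mean log2 expression of 2.87 in KO and 4.58 in WT, so it was lower under the KO label, although exons outside the deleted part were counted too. None of 18 markers of colon epithelium was on the list, so the labelled tissue could not be checked against them. Of 16 immune cell markers 1 was listed, Gzmb with a log2 difference of -1.55, and of 12 markers of stroma and vessels none was. The part of immune cells in the results was not tested. In bulk libraries such as these, fewer cells of a type and less RNA per cell cannot be told apart.

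The promoter windows are shown first, because the genes differ in the letters that known response elements use, and Mt1 is a textbook target of one of them. RefSeq windows of GRCm38.p6, from 250 bases before to 50 bases after an annotated start, were found for all 5 genes. The window start site coincided with the start in the deposited row for 4 genes, and that of Gsta3 differed by 4 bases. Sult1b1 has 2 RefSeq windows, of which the one at the deposited start was used. Each window was searched on both strands for the core of the metal response element, bound by the zinc sensor MTF-1, in its forms TGCACNC and TGCGCNC. The other motifs searched were the core of the antioxidant response element, TGACNNNGC, bound by NRF2, and that of the xenobiotic response element, GCGTG, bound by the aryl hydrocarbon receptor. Matches are in capitals in the 3 windows below, which lie at chr8:94178839-94179138 on the plus strand for Mt1, at chr15:100304567-100304866 on the plus strand for Mettl7a1 and at chr1:21240335-21240634 on the plus strand for Gsta3.
Mt1: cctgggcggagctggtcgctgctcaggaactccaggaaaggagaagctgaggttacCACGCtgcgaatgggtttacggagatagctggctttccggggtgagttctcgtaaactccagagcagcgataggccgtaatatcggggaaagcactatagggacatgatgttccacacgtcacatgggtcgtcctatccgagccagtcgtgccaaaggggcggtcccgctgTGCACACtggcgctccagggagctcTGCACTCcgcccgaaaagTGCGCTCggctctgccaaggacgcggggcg
Mettl7a1: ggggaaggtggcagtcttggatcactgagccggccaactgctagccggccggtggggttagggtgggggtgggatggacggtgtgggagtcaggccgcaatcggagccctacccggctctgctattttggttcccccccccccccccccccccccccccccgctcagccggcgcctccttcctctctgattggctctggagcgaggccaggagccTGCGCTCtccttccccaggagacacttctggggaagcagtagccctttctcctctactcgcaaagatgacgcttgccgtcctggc
Gsta3: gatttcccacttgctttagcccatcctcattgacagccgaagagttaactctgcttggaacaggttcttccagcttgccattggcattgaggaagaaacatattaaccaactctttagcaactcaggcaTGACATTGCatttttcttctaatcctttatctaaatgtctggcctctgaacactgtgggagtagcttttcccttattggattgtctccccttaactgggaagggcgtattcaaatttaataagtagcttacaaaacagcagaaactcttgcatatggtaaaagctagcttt

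The Mt1 window held 3 matches to the metal response element core, 2 of TGCACNC and 1 of TGCGCNC, whose first bases lie at -23, 2 and 20 relative to the annotated start, counted as 0. Over all 32851 mouse promoter windows of the same length, 25.7% held at least 1 match to either form, and 1.97% held 3 or more. Mettl7a1 had 1 match, at -35, and Gsta3, Sult1b1 and Glo1 had none. The antioxidant core was found in Gsta3, at -121, and in 12.4% of all windows. GCGTG, which 32.4% of all windows hold, was found in Mt1, on the reverse strand at -194. The Sult1b1 and Glo1 windows, which are not printed, held no match to the 4 patterns. No 2 of the searched matches overlapped in these windows. A match describes letters in the window and does not show that a factor binds there.

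**Figure D1:**
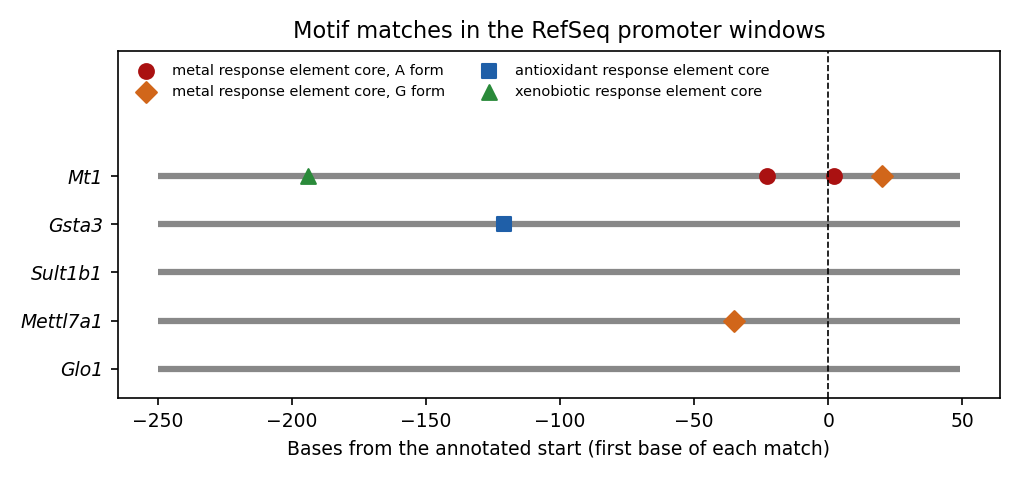
Positions of motif matches in the 300-base promoter windows of the 5 genes. The x axis gives bases from the RefSeq start (dashed line), grey bars are the windows, and each symbol is the first base of 1 match. Mt1 holds 4 matches, of which 3 are to the metal response element core, while Sult1b1 and Glo1 hold none.

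The windows also differed in base composition. G and C made up 60.7% of the Mt1 window and 67.0% of the Mettl7a1 window, above the median of 52.7% over all windows. They made up 49.7% of the Glo1 window, 41.0% of the Gsta3 window and 41.3% of the Sult1b1 window. The CpG dinucleotide, rare in the genome outside CpG islands, occurred 24 times in Mt1, 15 times in Mettl7a1, 11 times in Glo1, 2 times in Gsta3 and 0 times in Sult1b1, against a median of 7. The 4 genes that were higher in KO were therefore found at both ends of this scale.

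Of the 5 genes, 4 had a higher mean in KO and 1, Glo1, had a lower mean, against 55.7% of the whole list with a higher mean in KO. Since the list was selected on the same contrast, nothing is read from this share. The 5 differences ranged in size from 0.68 to 1.16 log2 units, with a median of 0.72, and the 61 genes of the list ranged from 0.42 to 6.78 with a median of 0.78. Only Mt1 among the 5 differed by more than 1 log2 unit, as did 23 of the 61 listed genes. The 5 genes were thus among the middle of the list by size, and none of them was among its largest changes. Their mean level over both genotypes ran from 4.35 to 7.15 log2 units with a median of 6.14, while the median of the whole list was 5.23.

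**Figure D2:**
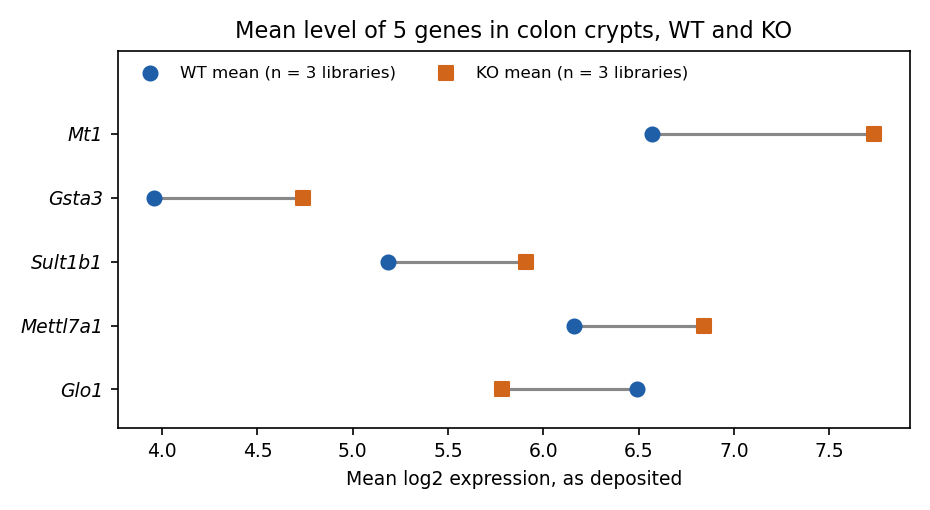
Mean log2 expression of the 5 genes in WT (blue circles) and KO (orange squares) colon crypts, as deposited, each a mean of 3 libraries, drawn without an error since values per library were not used. The KO mean lies to the right of the WT mean for Mt1, Gsta3, Sult1b1 and Mettl7a1, and to the left for Glo1.

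Mt1 encodes metallothionein 1, a short cysteine-rich protein that binds zinc and copper and is induced by metals and stress. In WT crypts its mean log2 expression was 6.57, against 7.73 in KO crypts. The difference of 1.16 log2 units corresponds to a KO level of 224% of WT, and it was the largest of the 5 genes, 0.38 log2 units above the next. By size Mt1 ranked at place 22 of the 61 listed genes, and at place 11 of the 34 that were higher in KO. There were 5 other listed genes whose mean level lay within 0.5 log2 units of that of Mt1, a range chosen after the values were seen. Their differences were between 0.48 and 0.72 in size, so none reached that of Mt1. The rank of Mt1 by level among the 61 genes was 11 in WT and 6 in KO.

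**Figure D3:**
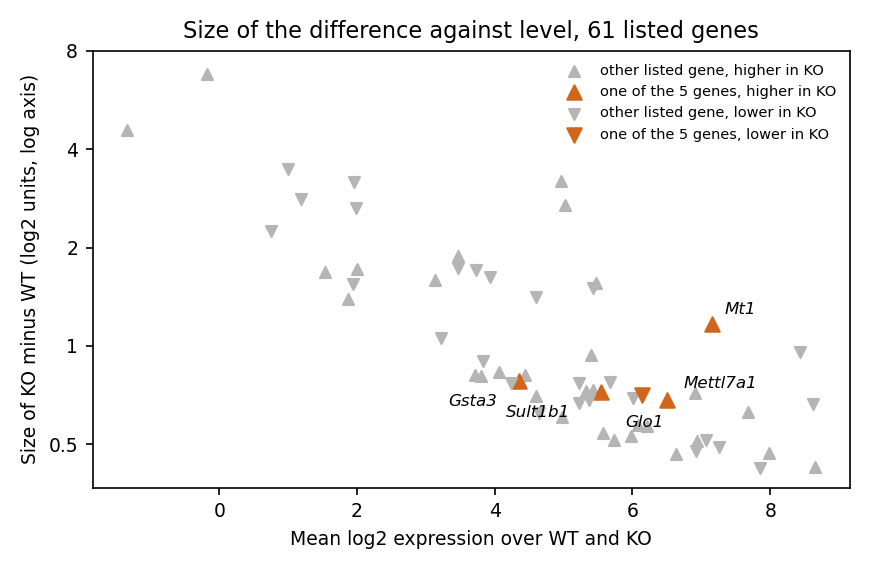
Size of the KO minus WT difference (log2 units, on a log axis) against mean log2 expression over both genotypes for the 61 listed genes. Triangles point up for genes higher in KO and down for genes lower in KO, and the 5 genes are in orange. Mt1, at a mean level of 7.15, lies above the listed genes of like level, while Gsta3, Sult1b1, Glo1 and Mettl7a1 lie among theirs.

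The conjugating enzymes were both higher in KO. Gsta3, an alpha class glutathione transferase known in mice for the conjugation of the activated mould toxin aflatoxin, had mean log2 expression of 4.74 in KO and 3.96 in WT. It differed by 0.78, so that the KO level was 172% of the WT level. Sult1b1, a sulfotransferase of the phenol family, had mean log2 expression of 5.91 in KO and 5.19 in WT. Its difference was 0.72 and its KO level 165% of the WT level. Of 7 other listed genes within 0.5 log2 units of the level of Gsta3, 4 differed by more than Gsta3, and of 13 near the level of Sult1b1, 7 did. The median size among those neighbours was 0.81 for Gsta3 and 0.73 for Sult1b1, close to the values of the enzymes themselves.

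Mettl7a1, whose human counterpart METTL7A methylates thiols and sits in the endoplasmic reticulum and on lipid droplets, had mean log2 expression of 6.84 in KO and 6.16 in WT. The difference was 0.68, the smallest of the 5 in size, and the KO level was 160% of the WT level. Of 8 other listed genes of like level, 3 differed by more. The differences of Gsta3, Sult1b1 and Mettl7a1 lay within 0.099 log2 units of each other, and whether these 3 genes differ in response was not tested.

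Glo1 went the other way. The enzyme makes S-lactoylglutathione from methylglyoxal and glutathione, and a hydrolase, the product of Hagh, then releases the glutathione. In WT crypts Glo1 had mean log2 expression of 6.49, and in KO crypts 5.78. The difference of -0.71 corresponds to a KO level of 61.3% of WT. The WT level was 1.63 times the KO level, nearly the size of the Sult1b1 difference in the opposite direction. Among the 27 listed genes with a lower mean in KO, Glo1 ranked at place 18 by size. Of 8 other listed genes of like level, 1 differed by more. Hagh was not on the list, and for genes outside it no value was used here.

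**Figure D4:**
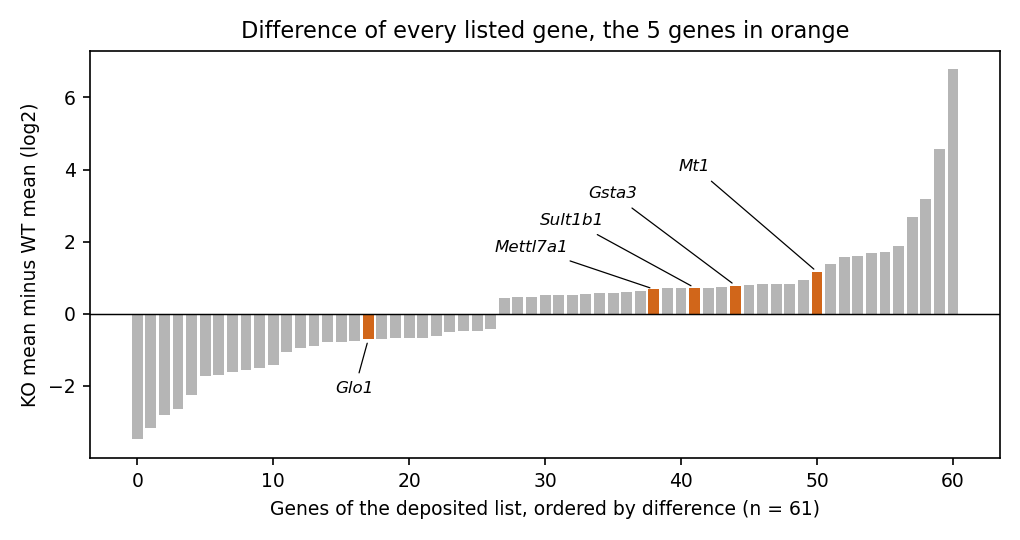
KO mean minus WT mean (log2) of the 61 listed genes, ordered from lowest to highest, with the 5 genes in orange. Mt1, Gsta3, Sult1b1 and Mettl7a1 stand among the 34 bars above 0, at 1.16, 0.78, 0.72 and 0.68, and Glo1 among the 27 below, at -0.71.

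On the linear scale, where a mean of log2 values becomes a geometric mean, the levels were added up on 3 scales, since the deposited one may or may not be per length of transcript. On the deposited scale, Mt1 made up 30.8% of the summed level of the 5 genes in WT and 45.3% in KO, and 60.1% of the summed gain of the 4 genes that were higher in KO. Divided by the longest annotated transcript, these shares of Mt1 were 57.2%, 66.9% and 75.5%. Divided by the transcript of the protein named in the deposited row, they were 62.0%, 75.2% and 84.6%. The share in WT thus moved by over 1.5 times under both divisions, and the share in KO under the second. The share of Mt1 was higher in KO than in WT on each of the 3 scales. This outcome was fixed, since Mt1 has the largest ratio of KO to WT of the 5. Division by a length cannot change that ratio, so the 3 scales do not test it.

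The order of the levels was compared on the deposited scale and after division by transcript length. In WT the deposited means ran in the order Mt1, Glo1, Mettl7a1, Sult1b1 and Gsta3, and in KO in the order Mt1, Mettl7a1, Sult1b1, Glo1 and Gsta3. Glo1 thus stood in the second place of the 5 in WT and in the fourth in KO. Per length of the longest transcript the order in WT was Mt1, Mettl7a1, Sult1b1, Glo1 and Gsta3, and in KO Gsta3 stood before Glo1. Per length of the transcript of the listed protein, Glo1 was in the second place in WT and in the third in KO. Over both genotypes, and the deposited scale, division by the longest annotated transcript and division by the transcript of the protein named in the deposited row, Mt1 was first in 6 of 6 orders. Gsta3 was last in 5 of 6, and Glo1 in the other. Mt1 was first on the deposited scale and has the shortest transcript under both divisions. Division by length could therefore not change its place, and is no check of it. Mt1 and Glo1 lay 0.08 log2 units apart in WT on the deposited scale, and Sult1b1 and Glo1 0.12 apart in KO. Whether such neighbours in the order differ beyond the spread of the libraries was not analysed.

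Other genes of the same pathways were looked up in 7 lists with 138 genes in all, and the 5 described here were the only ones listed. Of 21924 symbols of protein-coding genes in GENCODE M21, 56, or 0.255%, matched a listed gene. How many genes the authors tested was not analysed here, and the lists were built around the 5 genes, so nothing is read from the counts against this share. They were 1 of 33 glutathione enzymes, 1 of 13 sulfotransferases and enzymes of sulfate activation, 1 of 17 glyoxalase and aldehyde enzymes, 1 of 16 genes of metallothioneins and of zinc or copper handling, and 1 of 10 small molecule methyltransferases. None of 27 glucuronosyltransferases, cytochromes P450, carboxylesterases and epoxide hydrolases was listed, nor any of 22 genes of the oxidative stress response, of xenobiotic sensing and of export. Among the genes without a row were Nqo1, Hmox1 and Gclc, known targets of NRF2, Cyp1a1, the classical target of the aryl hydrocarbon receptor, and Slc30a1, a zinc exporter and target of MTF-1. A gene without a row may have changed without passing the FDR, so these counts describe the list alone.

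The gene families are clustered in the genome, and relatives stand beside 3 of the 5 genes. In GRCm38, Mt1 occupies the plus strand of chromosome 8 between 94179089 and 94180325, with Mt2, Mt3 and Mt4 within 100 kb. Sult1b1 occupies the minus strand of chromosome 5 between 87513339 and 87538195, with Sult1d1 and Sult1e1 within that distance. Mettl7a1, annotated from 100304140 to 100328662 in GENCODE M21, lies on the plus strand of chromosome 15. Its deposited row runs from 100304817 to 100314348, with Mettl7a2 and Mettl7a3 near it. None of these 7 relatives was on the list. The window of Mt2, which like Mt1 is expressed in most tissues, held 4 matches to the metal response element core, against 3 for Mt1, and those of Mt3 and Mt4 held 1 each. Those of Sult1d1, Sult1e1 and Mettl7a2 held none.

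Gsta3 occupies the plus strand of chromosome 1 between 21240589 and 21265361, and Glo1 the minus strand of chromosome 17 between 30592866 and 30612659. These are the spans of the deposited rows, and GENCODE M21 annotates Glo1 from 30584936 to 30626871. No relative by name was found within 100 kb of Gsta3 or Glo1. Another listed gene lay within 100 kb of Gsta3 alone, where Khdc1a, whose start is 0.109 Mb away, was also higher in KO, with a difference of 6.78. The nearest listed gene by start was at 0.387 Mb from Mettl7a1, the lower Galnt6, an enzyme of mucin glycosylation. It was at 2.88 Mb from Glo1, the lower goblet cell factor Spdef, at 17.2 Mb from Mt1, the higher Fa2h, and at 19.9 Mb from Sult1b1, the higher Atp8a1. The 5 genes thus lie on 5 chromosomes.

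By gene structure Mt1 is the most compact of the 5. It spans 1.24 kb with 3 exons in the transcript of the listed protein, of 549 bases, and encodes 61 amino acids. Gsta3 spans 24.8 kb with 7 exons and encodes 221 amino acids, and Sult1b1 spans 24.9 kb with 8 exons and encodes 299. Mettl7a1 has 2 exons and encodes 244 amino acids. Glo1 has 10 annotated transcripts, of which the longest coding frame has 184 amino acids. The transcript to which GENCODE M21 ties the listed Glo1 protein is annotated for nonsense-mediated decay, so transcript-level statements on Glo1 are uncertain. The 3 annotated Mt1 transcripts start at -7, 122 and 152 relative to the deposited start, so that for transcripts from the later starts all 3 metal response element matches lie upstream. None of the 8 annotated Mettl7a1 transcripts starts at the deposited start. Their starts lie at -56, -28 and 354 for 3 of them and between -677 and -589 for the other 5, so that the match at -35 lies upstream of the starts at -28 and 354 and downstream of the rest.

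Because only uniquely mapped reads were counted, near-identical copies lower the count of a gene. For Mettl7a1, 24.8% of the 50-base words in its transcript are found again elsewhere in the transcriptome, namely 22.1% in Mettl7a2, 10.9% in Mettl7a3 and 7.01% in Methig1. The value of Mettl7a1 is therefore uncertain. In Glo1, 6.46% of the words of the longest transcript are shared, and 17.6% of those of the transcript of the listed protein, the latter all with the processed pseudogene Gm13443. The share was 0.44% for the longest Gsta3 transcript, which has 1 exon and is annotated as a retained intron. It was 0 for the Gsta3 transcript of the listed protein. For Mt1 and Sult1b1 it was 0, so that relatives such as Mt2 hold no 50-base word of the Mt1 transcript. An antisense transcript, Gm28836, overlaps Gsta3. Glo1 overlaps AC174471.1 on its own strand and AC165962.4 and AC165962.2 on the other. The study's methods name directional library kits for sorted cells and for organoids. The use of strand in counting is not stated, so reads from these genes cannot be told apart with certainty.

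The listed genes most like each of the 5 were found by the Euclidean distance over the 2 genotype means, KO and WT. Nearest to Gsta3 was Btnl1, a butyrophilin-like gene of gut epithelium, at a distance of 0.14 log2 units, with means of 4.85 in KO and 4.04 in WT. Nearest to Sult1b1 was Atp8a1, a phospholipid flippase gene, at 0.13, with a difference of 0.54 against the 0.72 of Sult1b1. Phyh, a gene of peroxisomal lipid breakdown, was nearest to Mettl7a1 at 0.24. The lysosomal protease gene Lgmn was nearest to Glo1, at 0.18, and was lower in KO by nearly the same amount, with a difference of -0.69. Mt1 had the most distant partner, the gasdermin gene Gsdmc2, at 0.47, whose mean was 6.55 in WT, near that of Mt1, and 7.26 in KO. With 2 points a gene this distance compares levels and the single difference, and gives no pattern over libraries.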

How the data were processed

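RNA-seq of colon crypts was analysed from 3 WT and 3 KO libraries, with groups taken from sample titles. According to the submitters' processing notes, the authors used Trim Galore 0.4.2 for trimming and HISAT2 2.0.1 for mapping to GRCm38. Uniquely mapped reads were counted in SeqMonk over exons of merged transcript isoforms. The deposited log2 expression values are the authors' means, 1 per genotype, normalised to total reads according to the study's description of the same list, whereas its methods name RPKM for fold changes. Whether the deposited columns are per transcript length is not settled. The FDR column that the authors deposited holds p-values of KO against WT, computed with DESeq2 on raw counts and corrected for multiple testing. It was read only to check that 0 of the 61 rows reach 0.05, and its values are not reported. Library depth is unknown from the values used.

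The model designed for values per library could not be fitted to the deposited means, and values from supplements of the paper were not used, so differences are the KO mean minus the WT mean, with no test. The 5 genes, the pathway lists and the markers were chosen with earlier results of these data known. Genes named are the 5, Smarcad1, their nearest listed genes by values and by position, genes that share words with them, and listed members of the gene lists. Other genes were named after their values were seen, or as unlisted examples. Annotation was GENCODE M21 (GRCm38), and words of 50 bases were compared between the longest transcript of each gene and the transcripts of all other genes. Promoters were RefSeq windows of GRCm38.p6. Word search and motif search were tested on simulated data. Alternatives were adding 1 or 0.1 before logs, a minimum mean log2 of 0 or 4, division by transcript length, words of 36 and 100 bases, the transcript of the listed protein, and the forward strand only. Python 3.11.15, numpy 2.4.6, pandas 2.3.3 and matplotlib 3.10.9 were used.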

Additional observations from a re-analysis of the deposited data

How the results depend on the processing

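With a pseudocount of 1 the differences of the 5 genes moved by at most 0.037 log2 units, and with 0.1 by at most 0.0039. A pseudocount cannot change a direction, so directions were not tested by it. Filters on mean log2 of at least 0 or 4 kept the counts of listed and described genes higher in KO within 1.5 times.

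The order of levels depended on length. Divided by the longest transcript, Glo1 went to place 4 in WT and 5 in KO, Sult1b1 to 3 and Mettl7a1 to 2 in WT, and Gsta3 to 4 in KO. Divided by the transcript of the listed protein, an alternative chosen after seeing the data, Glo1 went to 3 and Sult1b1 to 4 in KO. With these divisions the share of Mt1 in the summed level was 57.2% and 62.0% in WT, against 30.8% without, and 66.9% and 75.2% in KO, against 45.3%. They apply only if the deposited values are not already per length. The longest Glo1 transcript has 9865 bases and that of its listed protein 2024. For Gsta3 the longest, annotated as a retained intron, has 2792 bases and that of its listed protein 1457.

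The share of Mettl7a1 words found in other genes was 36.2% with words of 36 bases and 7.42% with words of 100 bases, and that of Glo1 was 8.37% and 2.88%. That of Gsta3 was 2.47% and 0%.

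No paired analysis was possible because the deposited data analysed here give each genotype a single mean. Leaving out each library in turn was likewise not run, and whether a difference rests on 1 library was not analysed.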
